A study of Mus musculus with 12 samples.

Results

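Liver gene expression of Jackson mice that had shared cages with Taconic mice (CoJAX) was compared with that of Jackson mice kept only with others from their own vendor (JAX). The comparison used 6 of the 12 libraries of the series, 3 in each group. It covered the 11594 of 23909 genes that reached 1 RPKM in at least 3 of these 6 libraries. RPKM is a count of the reads that fall on a gene after division by its length and by the total for that library. All mice were of the C57BL/6 strain, and livers were taken after 4 weeks of shared housing. The other 6 libraries came from Taconic mice kept with their own vendor (TAC, 3 libraries) and from Taconic mice caged with Jackson mice (CoTAC, 3 libraries), so CoJAX and CoTAC mice were cage mates. No drug, diet or engineered allele is named for any group. The sources used here do not give sex, age, the hour of collection or the assignment of mice to cages. Nothing in the labels says that every library stands for its own animal, so p-values cover the spread between these samples only, and that spread may be technical.

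Mice eat faecal pellets, their own and those of cage mates, and gut microbes pass between them on that route. Mice of different vendors carry different gut communities, but cohousing leaves the genome of each mouse as it was. The liver receives blood from the intestine through the portal vein, with microbial fragments, fermentation products and bile acids that gut bacteria have altered. Hepatocytes make most plasma proteins on ribosomes at the endoplasmic reticulum (ER), export them in coated vesicles, and conjugate and excrete foreign and microbial compounds.

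Alb, which encodes serum albumin, read 914, 1089 and 1152 RPKM in JAX 1 to 3 and 884, 760.2 and 512 RPKM in CoJAX 1 to 3. These values moved with depth. Estimated depth, inferred from low RPKM values, was 1520000 to 2000000 reads per library for JAX and 2180000 to 3770000 for CoJAX, and the groups did not overlap. For a 2000-nucleotide transcript, each read added 0.249 to 0.329 RPKM in JAX and 0.133 to 0.229 RPKM in CoJAX. Alb multiplied by relative depth came to 869 to 914 in JAX and 961 to 965 in CoJAX, nearly constant in CoJAX. Small RNA genes aside, many of the highest genes stood near a common Alb level in each library. For the most abundant genes a difference in RPKM therefore cannot be told apart from depth. The sources used here do not say whether duplicate reads were removed. Mir703, a small RNA gene model, stood at 7276 to 10054 RPKM in JAX against 2582 to 3820 RPKM in CoJAX. TAC 1, with an estimated 1590000 reads, stood with the JAX libraries in depth, in Alb (1144 RPKM) and in Mir703 (6106 RPKM), while TAC 2 and TAC 3 held 2110000 and 3520000 reads. CoJAX 1 and CoJAX 2 stood apart in small nucleolar RNA genes, whose median was 592 and 570.3 RPKM against 0 to 50.7 RPKM in the other 10 libraries. Since JAX and CoJAX differ in depth, depth and cohousing cannot be told apart within these 6 libraries. Values marked "with depth" below come from a fit over the 12 libraries with depth as a covariate, and for some genes the Taconic libraries are given too.

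With cohousing, 2930 genes (25.3%) passed the threshold, a Benjamini-Hochberg adjusted p under 0.05 in limma-trend over all genes tested, and 4611 (39.8%) had an unadjusted p under 0.05. Of the 2930, 1534 (13.2% of the genes tested) were higher in CoJAX and 1396 (12%) were lower, with a median log2 difference of 0.66 and -0.73. The median over all genes was -0.01. Differences are CoJAX minus JAX on the scale of log2(RPKM + 0.5), which understates the change of low genes, and values after ± are standard errors (SE) of that fit. In 5191 genes (44.8%) the 3 libraries of each group did not overlap. The count of calls fell to 1731 without JAX 2, 1468 without JAX 3, 1357 without CoJAX 2 and 1689 without CoJAX 3. With relative depth as a covariate over the 12 libraries, 105 genes (0.906%) passed, 74 higher and 31 lower, and 86 of them had also passed without it.

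Direction went with transcript length and with level. Among genes whose longest transcript was under 1000 nucleotides, 41.6% were lower in CoJAX and 2.25% higher, while among those over 6000 nucleotides 4.31% were lower and 19.7% higher. Of 755 genes with a mean above 25% of the Alb level, 271 were lower and 14 higher. The same gradients stood between Taconic libraries of one group. The mean log2 value of TAC 2 and TAC 3 exceeded TAC 1 in 1354 of the 1534 genes that were higher in CoJAX. It lay below TAC 1 in 1253 of the 1396 lower genes. Where TAC 2 and TAC 3 are set against TAC 1 by a single value below, that mean is meant. Over all genes tested, 5753 were higher and 5820 lower in TAC 2 and TAC 3 than in TAC 1, libraries that take no part in the contrast of CoJAX with JAX. After the deviations of each library were smoothed against length and level and removed, 2186 of 11075 genes (19.7%) passed, 10.4% higher and 9.36% lower, and 1688 of them had passed before. Counts of gene groups below stand beside the shares of 13.2% and 12%.

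**Figure D1:**
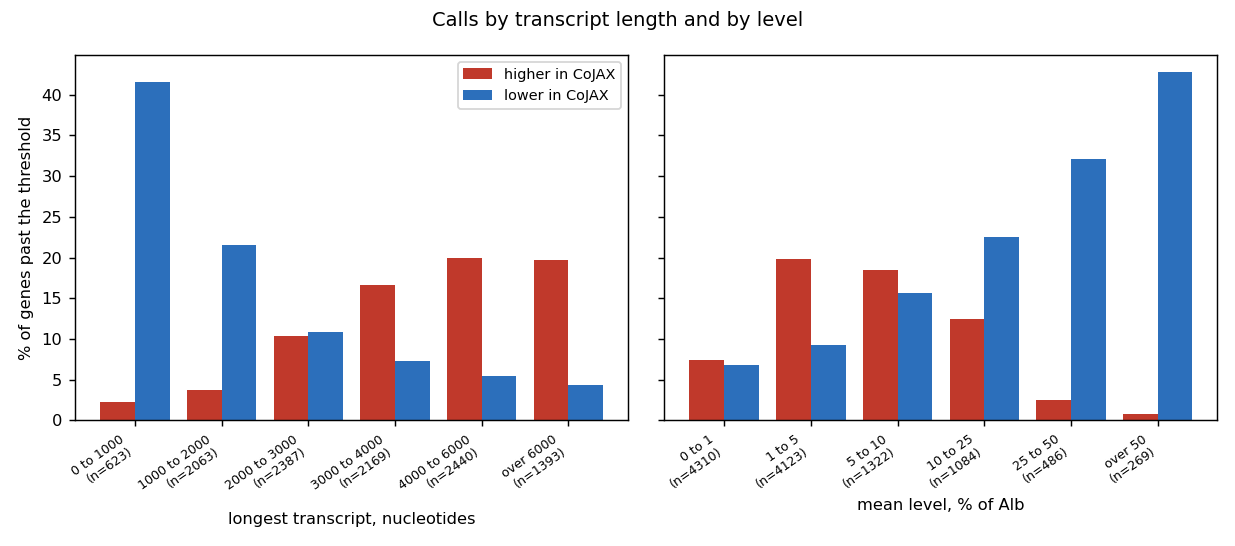
Share of genes past the threshold (y axis, percent) by longest transcript in nucleotides (left) and by mean level as a percentage of Alb (right), with red bars for genes higher in CoJAX and blue bars for genes lower, and the number of genes under each bin. Lower calls made up 41.6% of the shortest class and 4.31% of the longest, and 42.8% of the genes above 50% of Alb.

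**Figure D2:**
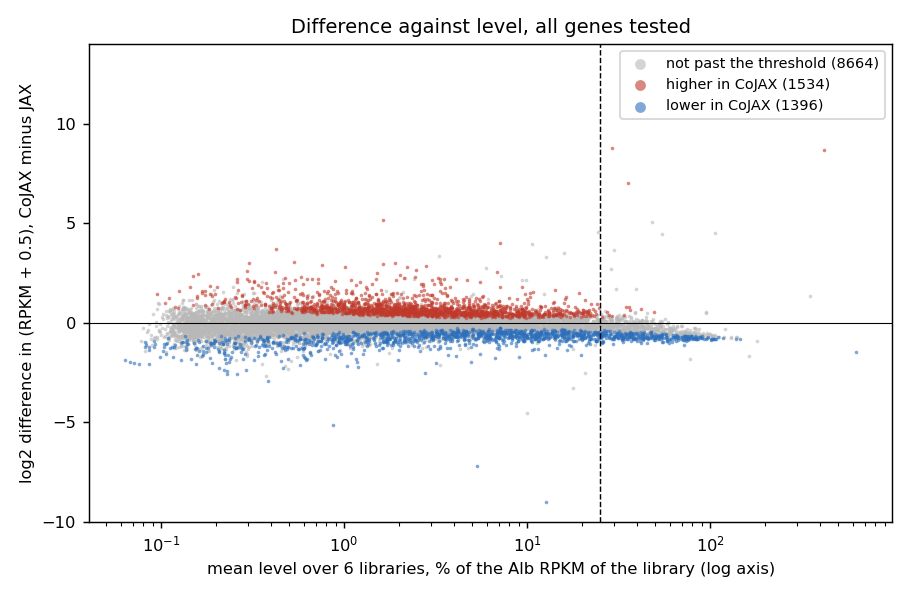
Log2 difference of CoJAX minus JAX (y axis) against mean level in percent of Alb (x axis, log scale) for the 11594 genes, grey where the test was not passed. Right of the dashed line at 25% of Alb, 271 genes were lower and 14 were higher.

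Slc25a30, a mitochondrial inner membrane carrier, rose in CoJAX. It read 2.77, 1.93 and 2.84 RPKM in JAX 1 to 3 and 19.2, 27.7 and 24.9 RPKM in CoJAX 1 to 3, a log2 difference of 3.02 ± 0.34 (adjusted p = 0.0020), and every CoJAX library exceeded every JAX library. With depth as a covariate the difference was 2.33, adjusted p = 0.029. Scara5, which encodes a scavenger receptor that takes up ferritin, went from 2.19, 4.67 and 2.37 RPKM to 18.2, 28.2 and 12.4 RPKM (log2 2.48 ± 0.33, adjusted p = 0.0040; 2.64, adjusted p = 0.040 with depth). Hook1, a microtubule adaptor in vesicle traffic, gave 5.38, 4.44 and 3.02 RPKM in JAX and a nearly even 23.3, 27 and 23.9 RPKM in CoJAX (log2 2.43 ± 0.29, adjusted p = 0.0029; 2.01, adjusted p = 0.038 with depth). These 3 genes were also higher in TAC 2 and TAC 3 than in TAC 1, by 1.03, 0.64 and 0.77 on the log2 scale. All 3 were among genes chosen for passing with depth, in a fit that uses the TAC libraries, so these values are no separate check.

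In all, 56 higher genes also passed with depth and after quantile normalization, and those with large differences are described here. Ipo7, an import receptor for ribosomal proteins and histones, gave 9.83, 7.15 and 6.06 RPKM in JAX and 31.8, 46.6 and 38.2 RPKM in CoJAX (log2 2.28 ± 0.29, adjusted p = 0.0040). Nupl1, a nucleoporin of the central channel, read 0.422, 1.32 and 0.879 RPKM and 4.72, 6.15 and 6.4 RPKM (log2 2.23 ± 0.31). Hist1h1c, which encodes a linker histone, stood at 33.9, 32.4 and 28.2 RPKM in JAX and 121, 126 and 86.4 RPKM in CoJAX, a log2 difference of 1.79 ± 0.19 (adjusted p = 0.0020; 1.88, adjusted p = 0.026 with depth). TAC 2 and TAC 3 differed from TAC 1 by 0.27 for this gene. Pds5a, a regulator of cohesin, rose from 3.63, 2.93 and 3.4 RPKM to 10.1, 13.1 and 11.8 RPKM (log2 1.67 ± 0.18). Hist1h4f, a histone H4 gene, was listed at 0 in all JAX, TAC and CoTAC libraries and at 2.82, 2.41 and 1.63 RPKM in CoJAX, so no fold is given. It passed the filter of 1 RPKM only through the CoJAX libraries. Its values there are few reads each, so its call carries little weight. Most histone mRNAs lack a poly(A) tail. Of 8 tested members of a list of such genes, 3 were higher (Hist1h1c, Hist1h1e and Hist1h4h) and 1 lower. Without CoJAX 1 or without CoJAX 2, 1 higher member was left. Outside that list, the histone gene Hist1h2ae was lower, at 2.64, 4.95 and 3.48 RPKM in JAX and 0, 0 and 1.4 RPKM in CoJAX. Its log2 difference was -2.39 ± 0.74 (adjusted p = 0.036; -4.07, adjusted p = 0.029 with depth), on few reads per library. It did not pass after correction for length and level (adjusted p = 0.28). Nudt12, a peroxisomal NADH pyrophosphatase, and Echdc1, an ethylmalonyl-CoA decarboxylase, rose by 1.96 and 1.95 on the log2 scale.

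Genes that fell under all these settings were 29 in number. Nrgn, which encodes the calmodulin-binding protein neurogranin, read 3.4, 4.79 and 4.49 RPKM in JAX and 0, 0.335 and 0.679 RPKM in CoJAX (log2 -2.57 ± 0.36, adjusted p = 0.0040), which is few reads per library. Fxyd3, a modulator of the sodium pump, dropped from 4.38, 5.48 and 5.78 RPKM to 1.34, 1.15 and 0.777 RPKM (log2 -1.85 ± 0.20, adjusted p = 0.0020; -1.70, adjusted p = 0.029 with depth), and TAC 2 and TAC 3 lay 0.16 above TAC 1. The Fxyd3 values too are few reads per library, and its small SE rests on them. Slc12a9, a member of the cation-chloride cotransporter family, gave 14.7, 12.3 and 13.3 RPKM in JAX against 3.55, 4.56 and 4.5 RPKM in CoJAX (log2 -1.57 ± 0.22). Arl4d, a small GTPase of the ARF family at membranes, was more abundant. It stood at 181, 213 and 255 RPKM in JAX and 92.8, 64.7 and 97 RPKM in CoJAX, a log2 difference of -1.36 ± 0.19 (adjusted p = 0.0040; -1.22, adjusted p = 0.049 with depth). The log2 difference was -1.27 for Luc7l3, a splicing factor, -1.59 for Gal3st1, the sulfotransferase of sulfatide synthesis, and -1.37 for Adamts10, a secreted metalloprotease.

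**Figure D3:**
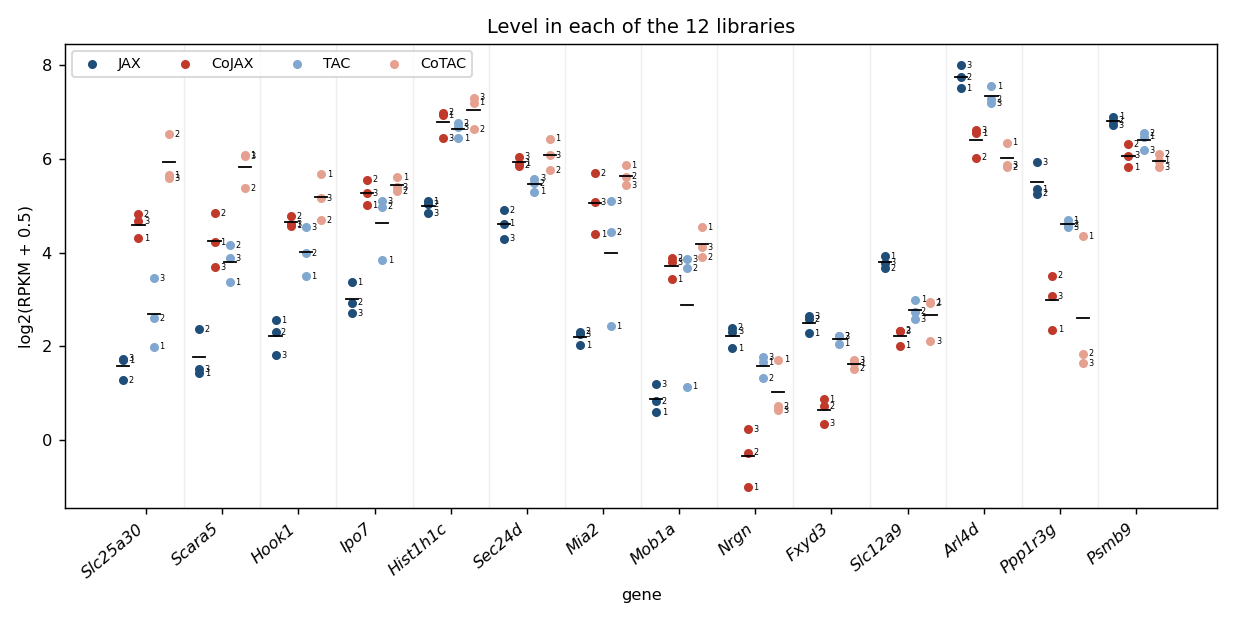
Level of 14 genes in each library as log2(RPKM + 0.5), with points numbered by replicate, colours for the 4 groups and a bar at the mean of each group. JAX and CoJAX points do not overlap for any gene shown, and TAC 1 lies with JAX for Mia2 and Mob1a (4.91 and 1.72 RPKM) while TAC 2 and TAC 3 lie with CoJAX.

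Other large differences did not pass with depth. Mob1a, an activator of the LATS and STK38 kinases, went from 1.02, 1.28 and 1.8 RPKM to 10.3, 14.2 and 13.4 RPKM (log2 2.83 ± 0.54, adjusted p = 0.0067), but TAC 1 read 1.72 RPKM and TAC 2 and TAC 3 read 12.3 and 14 RPKM. Its difference with depth as a covariate was 1.96, adjusted p = 0.098. Sntb1, a syntrophin of the dystrophin complex, gave 7.59, 3.56 and 2.81 RPKM in JAX and 25.3, 32.5 and 32.6 RPKM in CoJAX (log2 2.67 ± 0.60; 1.57, adjusted p = 0.16 with depth), beside 4.18, 29.5 and 30.7 RPKM in TAC 1 to 3. Prok1, a secreted ligand of prokineticin receptors, was listed at 0 in the 3 JAX libraries but read 6.17, 7.06 and 4.77 RPKM in CoJAX, and it was listed at 0 in TAC 1 and TAC 2 and at 2.55 RPKM in TAC 3 (adjusted p = 0.079 with depth). Prok1 too passed the filter only through its CoJAX libraries, at few reads each. Downwards, Cabyr, a calcium-binding protein known from sperm, read 18.5, 21.1 and 17.7 RPKM and 4.26, 3.22 and 3.59 RPKM (log2 -2.23 ± 0.48; -1.51, adjusted p = 0.14 with depth), with 38.7, 6.0 and 8.38 RPKM in TAC. For Mob1a, Sntb1 and Cabyr, TAC 1 lay near JAX or beyond it while TAC 2 and TAC 3 lay near CoJAX. The genes named so far that passed the test also passed with each of the 12 libraries left out in turn, with 3 exceptions. Mir703 was lost without CoJAX 2 (adjusted p = 0.052), and the others were the histone genes Hist1h1e and Hist1h4h. Hist1h2ae was not checked in this way.

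Many genes for export of secretory cargo from the ER were higher in CoJAX. Cargo leaves the ER in vesicles coated by COPII, whose Sec23 and Sec24 proteins form the inner layer that binds cargo, and COPI vesicles return proteins to the ER. Of 26 tested members, 13 were higher in CoJAX and 0 lower, with a median log2 difference of 0.36 over the list, where the median of all genes was -0.01. The list is of long transcripts (median 3903 nucleotides), and genes of 3000 to 4000 nucleotides had 16.6% higher calls and a median of 0.09. After correction for length and level, 9 of the 13 kept their calls, and with depth as a covariate 1 did, Sec24d. The count was 7 without JAX 3 or without CoJAX 2 and 14 without TAC 1. Summed over the list, RPKM was 1652 to 1846 in JAX and 2054 to 2201 in CoJAX.

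Sec24d, a cargo-binding subunit, read 24, 29.6 and 19.2 RPKM in JAX and 59, 57.5 and 65.5 RPKM in CoJAX, a difference of 1.32 ± 0.18 (adjusted p = 0.0040; 1.19, adjusted p = 0.049 with depth). Sec23a, which activates the GTPase of the coat, stood at a tight 25.4, 25.5 and 24.8 RPKM in JAX and 41.3, 47 and 42.2 RPKM in CoJAX (log2 0.77 ± 0.15, adjusted p = 0.0068; 0.60, adjusted p = 0.096 with depth). Sec16b, a scaffold of ER exit sites, rose from 23.9, 24.3 and 24.8 RPKM to 34.9, 38.2 and 44.6 RPKM (log2 0.67 ± 0.12; 0.49, adjusted p = 0.083 with depth). The groups were apart for all 3 genes. Mia2, which helps to load large cargo such as lipoproteins, gave 3.57, 4.47 and 4.28 RPKM in JAX and 20.6, 51.4 and 33.2 RPKM in CoJAX (log2 2.86 ± 0.52, adjusted p = 0.0058). In Taconic mice Mia2 stood at 4.91, 21.3 and 33.7 RPKM in TAC 1 to 3, and with depth the difference did not pass (1.88, adjusted p = 0.084). Of the COPI coat, Copa, Copb1 and Copb2 were higher, the latter pair by 0.47 and 0.57 (named after their values were seen). Their calls were lost without JAX 3 or CoJAX 2, and that of Copb2 also without JAX 1, JAX 2 or CoJAX 3 (adjusted p up to 0.053 for Copb1 and 0.079 for Copb2). Neither passed with depth (adjusted p = 0.13 and 0.18).

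A promoter element of secretory pathway genes, TGACGTGG, which the ER stress factors ATF6 and XBP1 can bind, was looked up on both strands in RefSeq promoters of GRCm38.p6 (250 bases before to 50 after the transcript start). It lay in 5 of the 23 list members with a promoter in that table, Sec23a, Sec24d, Sec16b, Copb1 and Copb2, and all 5 were among the 13 higher genes. It occurs in 222 of 32851 promoters (0.676%). A match is a description of the sequence and no evidence of binding. The 2 promoters below are shown because these genes form the COPII coat, with the matched letters in capitals on the strand of the gene, at chr3:123267246-123267545 (plus strand) for Sec24d and chr12:59011968-59012267 (minus strand) for Sec23a.
Sec24d: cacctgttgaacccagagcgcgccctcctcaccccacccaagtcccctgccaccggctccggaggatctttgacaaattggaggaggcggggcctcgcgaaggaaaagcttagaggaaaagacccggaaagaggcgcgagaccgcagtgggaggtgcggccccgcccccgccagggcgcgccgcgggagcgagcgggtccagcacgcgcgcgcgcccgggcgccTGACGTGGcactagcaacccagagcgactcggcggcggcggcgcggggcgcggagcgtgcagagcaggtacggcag
Sec23a: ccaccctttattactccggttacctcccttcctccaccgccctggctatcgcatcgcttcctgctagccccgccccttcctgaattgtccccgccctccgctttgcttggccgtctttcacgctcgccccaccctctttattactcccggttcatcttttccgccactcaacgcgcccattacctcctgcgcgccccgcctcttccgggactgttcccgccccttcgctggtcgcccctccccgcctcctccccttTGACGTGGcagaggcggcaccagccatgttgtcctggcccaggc

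Genes of the unfolded protein response, which enlarges the folding capacity of the ER, were more often higher than lower, though most did not pass. Atf4 is not in this list. It is counted under the amino acid response below and was lower (log2 -0.71, adjusted p = 0.0080). Of 30 tested, 11 were higher and 1 lower, with a median of 0.37, and 7 of the 11 kept their calls after correction for length and level and 1 with depth. The list median between TAC 2 and TAC 3 and TAC 1 had the other sign, -0.26, while Ern1 and Atf6 differed by 1.49 and 0.45 there. The count of higher members was 3 without CoJAX 2 and 11 without TAC 1, and was also under 8 without JAX 1, JAX 3, CoJAX 1 or CoJAX 3. Among the sensors, Atf6, the precursor of a transcription factor, read 13.4, 13.7 and 14.3 RPKM in JAX and 21.6, 27.7 and 21.5 RPKM in CoJAX (log2 0.74 ± 0.17, adjusted p = 0.012; 0.60, adjusted p = 0.14 with depth). Ern1, the kinase and nuclease IRE1, gave 2.2, 2.76 and 3.87 RPKM and 6.3, 15.6 and 9.51 RPKM (log2 1.61 ± 0.40; without CoJAX 2 adjusted p = 0.061; 1.06, adjusted p = 0.20 with depth). Xbp1, whose mRNA IRE1 splices, stood at 94, 106 and 91.2 RPKM in JAX and 146, 148 and 123 RPKM in CoJAX (log2 0.51 ± 0.12, adjusted p = 0.011) and passed with depth as well (0.67, adjusted p = 0.043). RPKM per gene does not tell spliced from unspliced Xbp1. Hyou1, a large ER chaperone, rose from 35, 53.2 and 47.1 RPKM to 112, 92.5 and 124 RPKM (log2 1.28 ± 0.28, adjusted p = 0.0099; 1.33, adjusted p = 0.083 with depth). Hspa5, the main ER chaperone BiP, did not pass (0.49 ± 0.19, adjusted p = 0.080).

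The ER stress element, CCAAT followed after any 9 bases by CCACG and searched the same way, lay in 9 of the 24 members with a listed promoter, against 39 of 32851 promoters (0.119%). Of the 9, Creld2, Dnajc3 and Canx were higher in CoJAX, by 1.20, 0.56 and 0.40 (chosen for the element after their values were seen), and the other 6, Hspa5 among them, did not pass, so the element was shared by members that passed and members that did not. All 3 calls were lost without JAX 1, CoJAX 1 or CoJAX 2, those of Creld2 and Dnajc3 also without JAX 2 or CoJAX 3, and that of Creld2 without JAX 3. The highest adjusted p-values of the 3 genes were 0.11, 0.10 and 0.090, and with depth they were 0.17, 0.10 and 0.072. Creld2 and Dnajc3, both known as targets of this response, are shown with the element in capitals, at chr15:88819396-88819695 (plus strand) and chr14:118937682-118937981 (plus strand).
Creld2: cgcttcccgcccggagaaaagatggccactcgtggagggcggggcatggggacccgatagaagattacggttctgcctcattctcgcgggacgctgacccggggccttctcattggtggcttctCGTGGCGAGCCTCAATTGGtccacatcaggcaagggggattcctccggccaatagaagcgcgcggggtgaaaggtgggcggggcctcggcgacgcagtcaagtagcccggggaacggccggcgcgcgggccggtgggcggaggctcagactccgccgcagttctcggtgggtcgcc
Dnajc3: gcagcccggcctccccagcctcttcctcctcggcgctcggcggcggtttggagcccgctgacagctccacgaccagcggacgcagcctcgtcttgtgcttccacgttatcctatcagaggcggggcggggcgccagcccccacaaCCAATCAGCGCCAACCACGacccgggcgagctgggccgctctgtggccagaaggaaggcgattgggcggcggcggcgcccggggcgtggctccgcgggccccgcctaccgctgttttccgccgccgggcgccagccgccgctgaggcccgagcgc

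Heat shock chaperones of the cytosol were 4 higher and 0 lower of 20, of which 1 kept its call after correction for length and level and 0 with depth. Hsph1, a nucleotide exchange factor of Hsp70, read 20.6, 32.3 and 22.5 RPKM in JAX and 58.6, 48.8 and 64.6 RPKM in CoJAX (log2 1.19 ± 0.22, adjusted p = 0.0061; 1.04, adjusted p = 0.083 with depth), beside 65, 50.8 and 82.9 RPKM in TAC 1 to 3. Chordc1, a partner of Hsp90, rose by 0.71 ± 0.15 (0.77, adjusted p = 0.077 with depth). With JAX 3 or CoJAX 3 left out, 2 members passed.

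Secreted plasma proteins showed rises among genes of moderate level. Of 38 complement and coagulation genes tested, 11 were higher and 1 lower, and 10 of the 11 kept their calls after correction for length and level and 3 with depth. The lower count was 6 without TAC 1 and 4 in a fit of the 6 Jackson libraries. Without CoJAX 2 the higher count was 5, and it was also below 8 without JAX 2 or JAX 3. F13b, a subunit of the clot-crosslinking factor XIII, read 71, 81.4 and 62.8 RPKM in JAX and 154, 152 and 128 RPKM in CoJAX (log2 1.01 ± 0.16, adjusted p = 0.0045; 0.91, adjusted p = 0.059 with depth). F9, coagulation factor IX, stood at an even 86.4, 87.6 and 86.7 RPKM in JAX and 122, 132 and 118 RPKM in CoJAX (log2 0.51 ± 0.10), and was one of the genes that passed with depth (0.55, adjusted p = 0.049). Masp1, a protease of the lectin pathway of complement, went from 8.7, 9.08 and 5.02 RPKM to 23, 52 and 33.7 RPKM (log2 2.15 ± 0.43; 1.36, adjusted p = 0.11 with depth), with 10.7, 30.8 and 41.5 RPKM in TAC 1 to 3. Proz, the vitamin K-dependent protein Z, rose by 0.61 ± 0.13 (0.61, adjusted p = 0.067 with depth). These 4 genes passed with each library left out in turn. The lower member was C8g, a complement chain at 57.6% of the Alb level, in the range where lower calls were common (log2 -0.70 ± 0.22; -0.15, adjusted p = 0.21 with depth). Its call was lost without JAX 2, JAX 3, TAC 2, CoJAX 2, CoJAX 3, CoTAC 1 or CoTAC 3 (adjusted p up to 0.13).

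In lipoprotein assembly, Apob, the structural protein of very-low-density lipoprotein, gave an even 97.7, 101 and 101 RPKM in JAX and 231, 271 and 169.6 RPKM in CoJAX (log2 1.13 ± 0.20, adjusted p = 0.0055; 1.19, adjusted p = 0.058 with depth). Its transcript is among the longest in liver, and the value after correction for length and level was 1.04, adjusted p = 0.0052. Mttp, the transfer protein that loads lipid onto apolipoprotein B, read 84.3, 84 and 78.1 RPKM and 126, 133 and 114 RPKM (log2 0.59 ± 0.11, adjusted p = 0.0056; 0.64, adjusted p = 0.049 with depth). Pltp, which moves phospholipid between lipoproteins in plasma, went the other way, from 185, 164 and 148 RPKM to 75.6, 26.4 and 78.3 RPKM (log2 -1.61 ± 0.35, adjusted p = 0.010; -1.64, adjusted p = 0.087 with depth), with CoJAX 2 the lowest. Of 21 lipoprotein genes tested, 3 were higher and 1 lower. This lower count was 8 without TAC 1 and reached 10 with a library left out. Pigr, the receptor that carries IgA into bile, gave 229, 229.8 and 240.4 RPKM and 316, 353 and 270.3 RPKM (log2 0.42 ± 0.12; 0.55, adjusted p = 0.049 with depth), but its adjusted p reached 0.12 without CoJAX 2, and it also exceeded 0.05 without CoJAX 1 or any of the 3 JAX libraries.

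Conjugation of foreign and endogenous compounds was represented by 19 glucuronosyl- and sulfotransferase genes, of which 6 were higher and 1 lower, with 5 and 1 kept after correction for length and level and 0 with depth. The Ugt1a genes share exons, so that reads can be split between them and their single values are uncertain. Ugt1a1, the bilirubin enzyme, read 111, 93 and 76.6 RPKM in JAX and 156, 165 and 126 RPKM in CoJAX (log2 0.67 ± 0.15, adjusted p = 0.011; 0.66, adjusted p = 0.086 with depth). Ugt1a9 rose from 17.6, 19.4 and 16.9 RPKM to 41, 53.1 and 38.5 RPKM (log2 1.26 ± 0.25; 0.95, adjusted p = 0.10 with depth), while Ugt1a6b fell from 148, 191 and 233 RPKM to 94.3, 81.1 and 63 RPKM (log2 -1.25 ± 0.28; -0.56, adjusted p = 0.087 with depth). The 6 higher calls became 3 without JAX 1, JAX 3 or CoJAX 2.

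Bile and drug transporters were 4 higher and 0 lower of 19, with 2 of the 4 kept after correction for length and level and 0 with depth. None were called without CoJAX 2 and fewer than 3 without JAX 2, JAX 3 or CoJAX 1. Abcc2, which pumps conjugates into bile, read 44.9, 39.9 and 46.4 RPKM in JAX and 74.2, 108 and 72.8 RPKM in CoJAX (log2 0.93 ± 0.22, adjusted p = 0.013; without CoJAX 2 adjusted p = 0.052; 0.63, adjusted p = 0.17 with depth). Among nuclear receptors and liver transcription factors, 9 of 31 were higher and 1 was lower, with 5 higher calls kept after the correction, 0 with depth, and 3 left without JAX 2 or CoJAX 2. The count of 9 was also below 6 without JAX 1, JAX 3 or CoJAX 3. Nr5a2, the liver receptor homolog LRH-1 of bile acid and lipid genes, went from 10.4, 10.6 and 6.74 RPKM to 20.3, 23.9 and 26.4 RPKM (log2 1.32 ± 0.24, adjusted p = 0.0056; 0.87, adjusted p = 0.080 with depth). Prox1, a homeobox factor of hepatocytes, gave 7.16, 6.18 and 5.42 RPKM and 15.3, 17 and 11.8 RPKM (log2 1.16 ± 0.24; 1.13, adjusted p = 0.083 with depth), and TAC 2 and TAC 3 differed from TAC 1 by 0.09. Foxa2, a pioneer factor, stood at 14.4, 20.2 and 21.6 RPKM in JAX and 28.7, 41.2 and 53.5 RPKM in CoJAX (log2 1.09 ± 0.22; 1.08, adjusted p = 0.083 with depth). All 3 kept their calls with each library left out in turn.

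Cytochromes of foreign compound and bile acid metabolism mostly did not pass. Cyp2b10, the marker target of the receptor CAR, was higher, at 3.31, 3.8 and 3.28 RPKM in JAX and 8.37, 9.36 and 15.1 RPKM in CoJAX (log2 1.49 ± 0.39, adjusted p = 0.019; 0.98, adjusted p = 0.23 with depth), and it did not pass without CoJAX 3 (adjusted p = 0.074) or without JAX 3. It was the single higher member of 20 tested CAR and PXR targets. Cyp7a1, the rate-limiting enzyme of bile acid synthesis, read 35, 37.6 and 25.2 RPKM in JAX and 9.84, 63.3 and 9.1 RPKM in CoJAX. CoJAX 2 lay above all JAX libraries and CoJAX 1 and CoJAX 3 below them, and the difference was -0.82 ± 0.61 (adjusted p = 0.34). It ran from -1.71 to -0.34 with 1 library left out, and passed without CoJAX 2 (-1.71, adjusted p = 0.023). Cyp8b1, which makes cholic acid, stood at 326, 326 and 309 RPKM in JAX and 342, 281 and 257 RPKM in CoJAX (adjusted p = 0.68), with overlapping groups. Of 16 tested bile acid synthesis genes, 11 lay above 25% of Alb, and 1, the peroxisomal oxidase Acox2, passed. That call was lost without any of the 6 Jackson libraries, CoTAC 1 or CoTAC 3 (adjusted p up to 0.11). After quantile normalization, where 26.5% of all genes passed, 9 of the 16 were higher. Cyp3a11 and Cyp2e1, near the Alb level at 75.1% and 85.4% of it, differed by -0.47 ± 0.22 and -0.45 ± 0.22 and did not pass. After quantile normalization Cyp2e1 passed in the other direction (0.14, adjusted p = 0.039), and after the correction for length and level Cyp3a11 passed as lower (-0.29, adjusted p = 0.039).

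Of 16 tested genes that handle microbial metabolites, 4 were higher and 0 lower, and 2 kept their calls after correction for length and level and 0 with depth. Acsm3, a mitochondrial medium-chain acyl-CoA synthetase, read 27.8, 21.7 and 23.6 RPKM in JAX and 57.4, 68.4 and 61.6 RPKM in CoJAX (log2 1.35 ± 0.25, adjusted p = 0.0059; 0.86, adjusted p = 0.083 with depth). It had the smallest p of the list and passed with each library left out, while TAC 1 to 3 stood at 23.7, 46.1 and 54.1 RPKM. Acss3, a synthetase for short-chain acids such as propionate, gave 1.56, 1.5 and 0.633 RPKM and 6.25, 5.48 and 11.2 RPKM (log2 2.22 ± 0.57; lost without JAX 3, adjusted p = 0.066, and without CoJAX 3; adjusted p = 0.25 with depth). The flavin monooxygenases Fmo5 and Fmo2 were the other members, and the list count was 1 without JAX 3 or CoJAX 3 and 2 or fewer without JAX 1, JAX 2, CoJAX 1, CoJAX 2 or CoTAC 2.

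Lipid genes moved in part. Of 47 PPAR alpha targets and fatty acid oxidation genes, 6 were higher and 1 lower, of 29 lipogenesis genes 6 were higher and 1 lower, and of 29 cholesterol genes 6 were higher and 1 lower. The higher shares were close to the background of 13.2% in the first list and above it in the others. After correction for length and level 6, 5 and 4 of them kept their calls, and with depth 1, 1 and 0. The lower count of the first list was 5 without TAC 1. Pex11a, which divides peroxisomes, read 95.5, 57.7 and 58 RPKM in JAX and 127, 158 and 142 RPKM in CoJAX (log2 1.05 ± 0.22, adjusted p = 0.0088; 0.67, adjusted p = 0.12 with depth). Cyp4a14, a strongly inducible PPAR alpha target, stood at 135, 192 and 97.9 RPKM and 129, 23.2 and 134 RPKM, with CoJAX 2 far below the rest (log2 -0.88 ± 0.63, adjusted p = 0.32). In fatty acid synthesis, Elovl2, an elongase of polyunsaturated acids, rose from 143, 126 and 136 RPKM to 197, 208 and 170.2 RPKM (log2 0.50 ± 0.11, adjusted p = 0.011; 0.51, adjusted p = 0.071 with depth). Fads2, the delta-6 desaturase before it, gave 149, 111 and 118 RPKM and 216, 328 and 205 RPKM (log2 0.96 ± 0.23; without CoJAX 2 adjusted p = 0.050; 0.71, adjusted p = 0.14 with depth). Abca1, which exports cholesterol to high-density lipoprotein, read 13.8, 13.3 and 11.4 RPKM in JAX and 20.2, 23.1 and 18.9 RPKM in CoJAX (log2 0.67 ± 0.13, adjusted p = 0.0073; 0.53, adjusted p = 0.10 with depth). Leaving out CoJAX 2 left 1, 2 and 1 higher members in the 3 lists. Fewer than 4 were left in each without JAX 3, and in the cholesterol list also without JAX 1, JAX 2 or CoJAX 3.

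Mitochondrial carriers, the Slc25 family that moves metabolites through the inner membrane, held 9 higher and 1 lower of 37. Of the 9, 8 kept their calls after the length and level correction and 2 with depth, and 7 to 11 were called with 1 library left out. Besides Slc25a30, Slc25a34 read 6.52, 7.0 and 5.9 RPKM in JAX and 15.9, 11.2 and 14.7 RPKM in CoJAX (log2 1.04 ± 0.18, adjusted p = 0.0053) and passed with depth (1.22, adjusted p = 0.046). Slc25a44, a carrier of branched-chain amino acids, rose from 27.3, 29 and 25.8 RPKM to 45.4, 53.6 and 60.9 RPKM (log2 0.94 ± 0.16; 0.78, adjusted p = 0.073 with depth). Slc25a48 went from 3.58, 2.24 and 1.41 RPKM to 7.56, 13 and 16.7 RPKM (log2 2.15 ± 0.44; 1.11, adjusted p = 0.081 with depth), with 2.70 RPKM in TAC 1 and 8.14 and 11 RPKM in TAC 2 and TAC 3. Slc25a13, the aspartate and glutamate carrier that serves the urea cycle, gave 78.4, 83.3 and 91.7 RPKM and 123, 149 and 131 RPKM (log2 0.67 ± 0.15; 0.57, adjusted p = 0.11 with depth).

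The urea cycle and amino acid breakdown list had 8 higher and 1 lower of 43 members, 27 of which lay above 25% of Alb. Cps1, the entry enzyme of the urea cycle, rose from 194, 220.0 and 202 RPKM to 377, 408 and 306 RPKM (log2 0.82 ± 0.16, adjusted p = 0.0065; 0.97, adjusted p = 0.039 with depth). Aass, the first enzyme of lysine breakdown, read 89.5, 108 and 104 RPKM and 149, 166 and 142 RPKM (log2 0.60 ± 0.13; 0.75, adjusted p = 0.049 with depth). Of the 8, 7 kept their calls after correction for length and level and 2 with depth. After quantile normalization 24 members were higher, and without CoJAX 3 the count was 5. In glycogen and glucose metabolism 6 of 29 were higher and 1 lower, with 3 of the 6 kept after correction for length and level and 0 with depth. The lower one was Ppp1r3g, which brings protein phosphatase 1 to glycogen. It stood at 40.2, 37.7 and 60.3 RPKM in JAX and 4.64, 10.9 and 7.95 RPKM in CoJAX (log2 -2.52 ± 0.56, adjusted p = 0.010), and TAC 1 to 3 lay at an even 25.4, 24 and 22.9 RPKM. With depth as a covariate it did not pass (-2.52, adjusted p = 0.094). Gbe1, the glycogen branching enzyme, rose from 37.2, 32 and 30.0 RPKM to 54.7, 63.3 and 53.7 RPKM (log2 0.79 ± 0.18; 0.51, adjusted p = 0.17 with depth). The higher count was 1 without CoJAX 2, and below 4 without JAX 3 or CoJAX 3.

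Of 21 glucocorticoid-induced and immediate early genes, 3 were higher and 1 lower, with 2 of the 3 kept after correction for length and level and 0 with depth. Fkbp5, a chaperone of the glucocorticoid receptor and a target of it, read 16.9, 24.2 and 30.0 RPKM in JAX and 76.4, 114 and 63.1 RPKM in CoJAX (log2 1.81 ± 0.29, adjusted p = 0.0045; 1.80, adjusted p = 0.059 with depth). Zbtb16, the zinc finger factor PLZF, went from 2.07, 5.89 and 3.47 RPKM to 15.4, 21.8 and 16.7 RPKM (log2 2.18 ± 0.40, adjusted p = 0.0059; 2.26, adjusted p = 0.066 with depth). Both passed with each library left out, and neither passed with depth. Klf9, the third higher gene, differed by 0.70 ± 0.21 (0.44, adjusted p = 0.30 with depth) and was lost without JAX 1, JAX 2, CoJAX 2 or CoJAX 3 (adjusted p up to 0.11).

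Amino acid response genes were 4 lower and 0 higher of 16, with 2 kept after correction for length and level and 0 with depth. Atf4, the factor that leads this response, read 154, 173 and 176 RPKM in JAX and 111, 95 and 102 RPKM in CoJAX (log2 -0.71 ± 0.15, adjusted p = 0.0080; -0.60, adjusted p = 0.0053 after the length and level correction; -0.44, adjusted p = 0.087 with depth). Ddit4, an inhibitor of the growth kinase mTORC1, gave 66.2, 97.4 and 102 RPKM and 35.3, 34 and 37.7 RPKM (log2 -1.27 ± 0.35; -0.91, adjusted p = 0.24 with depth), lost without JAX 2, JAX 3, CoJAX 2 or CoJAX 3 (adjusted p up to 0.077). Without JAX 2, JAX 3 or CoJAX 3, 1 member of the list passed, and without CoJAX 2 at most 2. Of the cytokine receptors in the acute phase list, Il1r1, the interleukin-1 receptor, rose from 15.8, 19 and 17.7 RPKM to 35.8, 38.1 and 30.9 RPKM (log2 0.98 ± 0.19, adjusted p = 0.0068; 1.08, adjusted p = 0.062 with depth). The 4 higher genes of 31 were Il1r1, Il6ra, Il6st and Steap4, receptor chains apart from the metalloreductase Steap4, and 3 kept their calls after correction for length and level and 0 with depth. The count of higher members reached 9 with 1 library left out, 8 in a fit of the 6 Jackson libraries and 13 after quantile normalization. Only 1 was left without JAX 3 or CoJAX 2 and fewer than 3 without JAX 1 or CoJAX 3. The lower member was Hamp2, a near copy of the gene of the iron hormone hepcidin, with which it may share reads, at 258, 341 and 215 RPKM and 77.8, 71.4 and 113 RPKM (log2 -1.63 ± 0.29, adjusted p = 0.0056; -0.82, adjusted p = 0.085 after the length and level correction; -1.52, adjusted p = 0.073 with depth).

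Interferon response genes that passed the test were all lower in CoJAX. Interferons bind receptors on nearly all cells and switch on antiviral and antigen presentation genes through STAT and IRF factors. Of 49 tested members, 14 were lower in CoJAX and 0 higher, with a median of -0.25. Median length was 2884 nucleotides, and among genes of 2000 to 3000 nucleotides 10.8% were lower with a median of -0.05. After correction for length and level, 9 of the 14 kept their calls, and with depth 2 did, Psme1 and Irf7. The count was 9 without JAX 2, JAX 3 or CoJAX 2 and 16 without TAC 1. The list sum was 2685 to 2997 RPKM in JAX and 1976 to 2141 RPKM in CoJAX.

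The immunoproteasome subunits Psmb8, Psmb9 and Psmb10 and the proteasome activators Psme1 and Psme2, which shape peptides for MHC class I, made up 5 of the 14. Psmb9 read 119, 112 and 105 RPKM in JAX and 56, 79 and 66.5 RPKM in CoJAX (log2 -0.74 ± 0.14, adjusted p = 0.0063; -0.70, adjusted p = 0.073 with depth), and TAC 2 and TAC 3 differed from TAC 1 by -0.11. Psme1 stood at 337, 367 and 387 RPKM and 228, 212 and 199.8 RPKM (log2 -0.77 ± 0.13, adjusted p = 0.0053; -0.53, adjusted p = 0.029 with depth). Psmb10 gave 133, 142 and 148 RPKM and 86.2, 102 and 75.6 RPKM (log2 -0.69 ± 0.14; -0.60, adjusted p = 0.083 with depth). The groups were apart in all 3. After correction for length and level, Psmb10 (-0.37, adjusted p = 0.084) and Psme2 (-0.20, adjusted p = 0.12) lost their calls, while Psme1 and Psmb9 kept theirs. Falls of similar size were seen in the separate list of proteasome subunits, where 8 of 31 were lower, by -0.73 to -0.50, and 1 was higher. Irf7, the factor that amplifies type I interferon, fell by 0.48 ± 0.11 (adjusted p = 0.011; -0.62, adjusted p = 0.049 with depth; named after its value was seen). Isg15, a ubiquitin-like modifier, differed by -0.72 ± 0.23 (adjusted p = 0.041; -0.49, adjusted p = 0.34 with depth), and this call was lost without JAX 2, JAX 3, TAC 2 or any of the 3 CoJAX libraries (adjusted p up to 0.13). Ifit1, an antiviral protein that binds foreign RNA, did not pass (-0.24 ± 0.23, adjusted p = 0.46).

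The core of the interferon-stimulated response element, GAAA followed after any 2 bases by GAAA, lay on either strand in 18 of the 37 members with a listed promoter, against 1131 of 32851 promoters (3.44%). Of these 18, 5 were lower in CoJAX (Isg15, Gbp7, Psme1, Bst2 and Eif2ak2) and 13 did not pass. Apart from Psme1, their calls were lost without JAX 2, JAX 3, CoJAX 2 or CoJAX 3, and those of Isg15 and Eif2ak2 also without CoJAX 1 (adjusted p up to 0.13). The value for Bst2 was 0.06, of the other sign, after correction for length and level. The promoters of Psme1, which passed with depth, and Isg15, a textbook interferon target, are shown with the element in capitals, at chr14:55578244-55578543 (plus strand) and chr4:156200769-156201068 (minus strand). Overlapping matches in Isg15 form a single run of capitals.
Psme1: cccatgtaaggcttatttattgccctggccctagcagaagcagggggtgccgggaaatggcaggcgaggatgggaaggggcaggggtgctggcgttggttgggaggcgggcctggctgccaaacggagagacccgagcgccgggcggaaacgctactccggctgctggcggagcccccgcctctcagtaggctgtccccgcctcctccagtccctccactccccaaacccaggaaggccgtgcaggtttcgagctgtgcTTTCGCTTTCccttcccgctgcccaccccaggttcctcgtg
Isg15: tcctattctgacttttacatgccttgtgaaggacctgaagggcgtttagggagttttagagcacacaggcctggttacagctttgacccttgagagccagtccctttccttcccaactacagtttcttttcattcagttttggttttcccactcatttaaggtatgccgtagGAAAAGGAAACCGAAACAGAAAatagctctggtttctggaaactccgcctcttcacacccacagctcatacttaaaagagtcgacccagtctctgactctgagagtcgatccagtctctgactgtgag

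**Figure D4:**
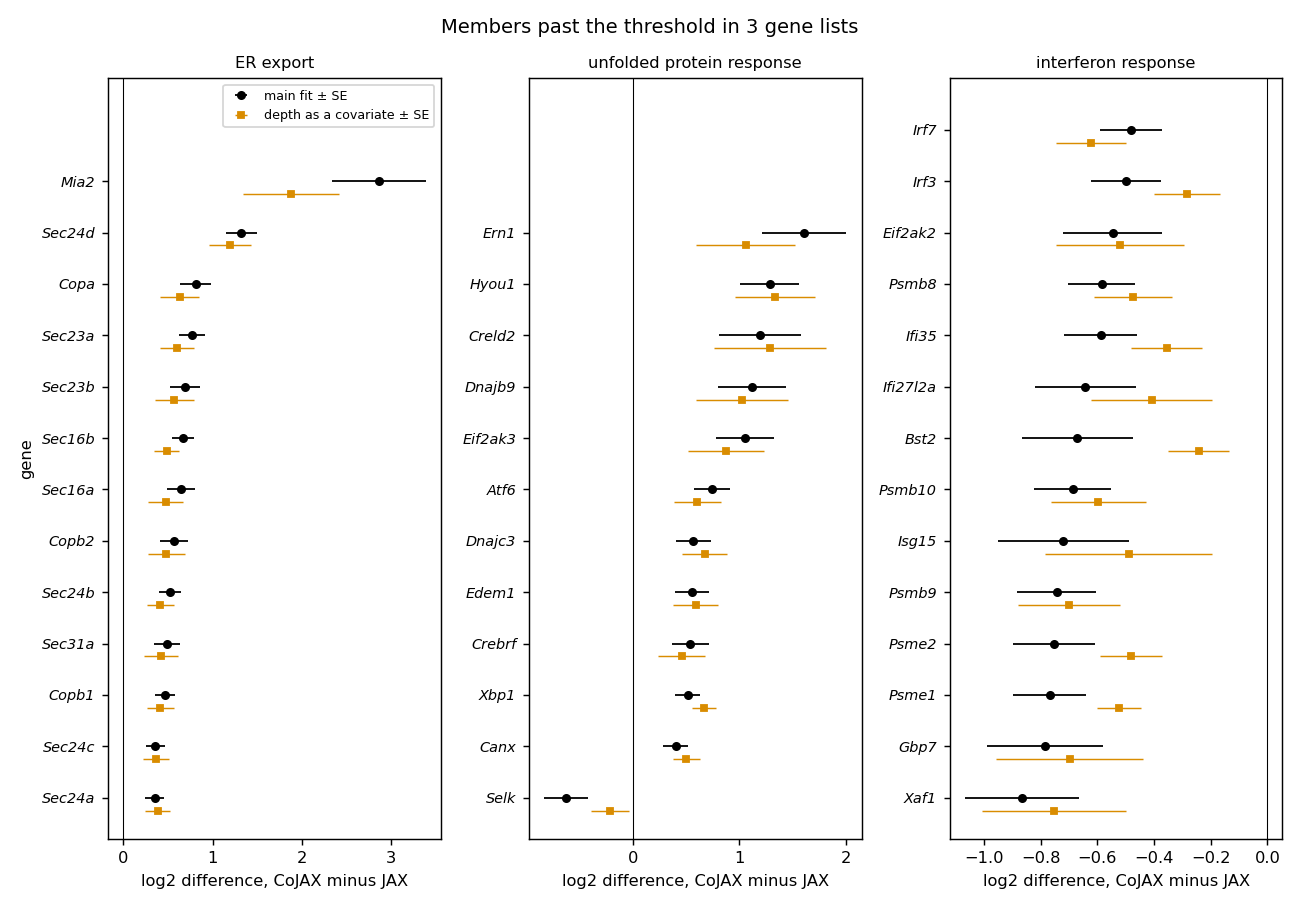
Log2 difference of CoJAX minus JAX (x axis, each panel with its own scale) for the members past the threshold in 3 lists, with black circles for the fit of 4 group means, orange squares for the fit with depth as a covariate, and bars for the SE. Sec24d and Mia2 lead the ER export genes at 1.32 and 2.86, and the 14 interferon genes lie below 0 in both fits.

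Markers of other liver cells were measured in the same libraries. The 15 Kupffer cell and macrophage markers with values summed to 531 to 1029 RPKM in JAX and 549 to 690 RPKM in CoJAX, with 0 of the 14 tested past the threshold. The 18 lymphocyte markers with values summed to 16.1 to 35.4 RPKM and 11.7 to 17.5 RPKM, with 0 of the 9 tested called. Among 15 sinusoidal endothelial markers 0 passed, with a list median of -0.35, and Stab1, a scavenger receptor of these cells, differed by -0.53 ± 0.22 (adjusted p = 0.091). Among the 17 markers of stellate cells and fibroblasts, Col3a1 and Cygb were lower, Col3a1 at 11.5, 10.5 and 12 RPKM and 6.73, 5.22 and 7.7 RPKM (log2 -0.76 ± 0.18; without CoJAX 2 adjusted p = 0.053; -0.82, adjusted p = 0.084 with depth), and 0 passed without CoJAX 2. In bulk tissue, fewer cells of a type and less RNA per cell cannot be told apart, and the part of these cells in the interferon list was not tested. Hepatocyte markers were high in all libraries, at a sum of 6253 to 7687 RPKM in JAX and 4110 to 6295 RPKM in CoJAX. The markers of pancreas and gut tested were 3 of 12, and 5 of the 12 were listed at 0 in the 6 libraries.

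Of 39 tested genes for sensing of microbes, 3 were higher and 4 lower, both below the shares of 13.2% and 12% over all genes. After correction for length and level 1 and 2 of them kept their calls, and with depth 0 did. Nfkbia, the inhibitor that NF-kappaB itself induces, read 114, 120.1 and 131 RPKM in JAX and an even 74.8, 72.1 and 73.2 RPKM in CoJAX (log2 -0.72 ± 0.13, adjusted p = 0.0057; -0.52, adjusted p = 0.0099 after the length and level correction; -0.59, adjusted p = 0.076 with depth). Nlrp6, a sensor of microbial products known mostly from the intestine, stood at 71.3, 82.2 and 84.7 RPKM and 48.9, 54.7 and 48.6 RPKM (log2 -0.64 ± 0.15, adjusted p = 0.012; -0.50, adjusted p = 0.14 with depth). Both passed with each library left out. Ly96, the partner of the endotoxin receptor TLR4, fell by 1.01 ± 0.24 (-0.63, adjusted p = 0.19 with depth), and this was lost without JAX 3 or CoJAX 3 (adjusted p up to 0.052). Higher members were Irak1, Ticam1 and Ripk2, and 0 of them passed without JAX 3 or CoJAX 2 and at most 1 without JAX 1 or CoJAX 3. Of the 4 lower members 2 were left without CoJAX 3. Socs1, a feedback inhibitor of cytokine receptors, gave 3.65, 2.86 and 2.41 RPKM and 0.419, 1.44 and 0.728 RPKM (log2 -1.40 ± 0.31, adjusted p = 0.010; -1.28, adjusted p = 0.11 with depth). These Socs1 values are few reads per library.

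Glutathione genes and other targets of NRF2, the factor of the oxidant response, were 9 lower and 1 higher of 28, and 2 of the 9 kept their calls after correction for length and level and 0 with depth. Cbr1, a carbonyl reductase, was one of these, at 239, 246 and 291 RPKM in JAX and 187, 143 and 161 RPKM in CoJAX (log2 -0.66 ± 0.15, adjusted p = 0.011; -0.54, adjusted p = 0.0087 after the correction; -0.44, adjusted p = 0.11 with depth). Gstp1, a glutathione transferase, read 378, 441 and 468 RPKM and 243, 307 and 209 RPKM (log2 -0.77 ± 0.22; -0.29, adjusted p = 0.29 with depth), with -0.10, adjusted p = 0.60 after the correction, and it was lost without JAX 2, JAX 3, CoJAX 1 or CoJAX 3 (adjusted p up to 0.092). The list count was 2 without JAX 2, JAX 3 or CoJAX 2, below 6 without CoJAX 1 or CoJAX 3, and 10 without TAC 1.

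Lists of short, abundant mRNAs had high shares of lower calls. Of 56 cytosolic ribosomal protein genes, 30 were lower and 0 higher, with 49 above 25% of Alb. Of 41 oxidative phosphorylation genes, 22 were lower and 2 higher, with 39 above that level, and of 31 proteasome genes 8 were lower and 1 higher. Their list medians, -0.67, -0.59 and -0.24, stood beside -0.64, -0.54 and -0.33 between TAC 2 and TAC 3 and TAC 1. After correction for length and level the list medians were -0.07, 0.02 and 0.00, but 13, 6 and 5 of the lower members kept their calls. With depth 0 members were lower in any of the 3. The lower counts ran from 0 to 47, 0 to 30 and 0 to 12 with 1 library left out, at 0 in all 3 lists without JAX 3, and more than 1.5 times lower without JAX 2, CoJAX 2 or CoJAX 3. That also held for oxidative phosphorylation without CoTAC 1 or CoTAC 3, and 45 ribosomal protein genes were lower without TAC 1. Rps19, a protein of the small subunit, read 473, 590.0 and 614 RPKM in JAX and 393, 326 and 291 RPKM in CoJAX (log2 -0.73 ± 0.19; -0.31, adjusted p = 0.069 with depth), and lost its call without JAX 2, JAX 3, CoJAX 2 or CoJAX 3 (adjusted p up to 0.061). The 3 higher members of these lists were Ndufs1, Sdha and Psmd2. Sdha, a subunit of complex II, differed by 0.40 ± 0.12 (0.48, adjusted p = 0.067 with depth; named after its value was seen), and its call was lost without CoJAX 1, CoJAX 2 or any of the 3 JAX libraries (adjusted p = 0.10 at most). Ndufs1, the largest subunit of complex I, went from 53.7, 60.6 and 55.2 RPKM to 93.3, 102 and 83.8 RPKM (log2 0.71 ± 0.13, adjusted p = 0.0062; 0.63, adjusted p = 0.079 with depth), and Psmd2, a base subunit of the proteasome, from 92.6, 104 and 103 RPKM to 129.8, 140.0 and 126 RPKM (log2 0.40 ± 0.09; 0.42, adjusted p = 0.064 with depth).

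Genes of the Hippo pathway, a kinase cascade that restrains the transcriptional co-activator YAP, were 8 higher and 0 lower of 24. Amotl2, which holds YAP at cell junctions, read 9.96, 12.8 and 14.1 RPKM in JAX and 24, 27.4 and 24.3 RPKM in CoJAX (log2 1.02 ± 0.14, adjusted p = 0.0040) and passed with depth (0.97, adjusted p = 0.049). Vgll4, a competitor of YAP at TEAD factors, rose from 5.95, 7.45 and 6.17 RPKM to 12.1, 20.1 and 26 RPKM (log2 1.44 ± 0.28; 0.87, adjusted p = 0.090 with depth). The median transcript of this list was 4479 nucleotides, and genes of 4000 to 6000 nucleotides had 20% higher calls, while 5 of the 8 kept their calls after correction and 1 with depth. Without CoJAX 2 there were 3, and fewer than 6 without JAX 3 or CoJAX 3. Among cell cycle genes 3 of 25 were higher and 1 lower, with 1 higher member kept after correction for length and level, 0 with depth, and 1 left without JAX 2, JAX 3, CoJAX 2 or CoJAX 3. Cdkn1b, the cyclin kinase inhibitor p27, gave 18.7, 17.1 and 18 RPKM and 28, 24.6 and 25 RPKM (log2 0.52 ± 0.10, adjusted p = 0.0071; 0.59, adjusted p = 0.060 with depth).

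Iron handling, retinoid and clock genes showed single changes. Of 21 iron genes 3 were higher, Scara5 and the iron regulatory proteins Aco1 and Ireb2, and only Scara5 passed without CoJAX 2. It was also the single one of the 3 that kept its call after correction for length and level or with depth. The lower member was Hamp2, and 4 were lower and 5 higher without TAC 1. Cyp26a1, which breaks down retinoic acid, read 22.3, 51 and 39.1 RPKM in JAX and 197, 42.3 and 132 RPKM in CoJAX, with CoJAX 2 inside the JAX range (log2 1.53 ± 0.47, adjusted p = 0.034; 1.86, adjusted p = 0.11 with depth). This call was lost without JAX 1, JAX 3, CoJAX 1 or CoJAX 3 (adjusted p up to 0.11). Dbp, a clock output gene that peaks late in the day, stood at 77.5, 0.786 and 102 RPKM in JAX and 4.9, 144 and 19.4 RPKM in CoJAX, and Arntl, the core clock factor BMAL1 of opposite phase, at 3.64, 14.6 and 1.77 RPKM and 25.3, 1.36 and 22.9 RPKM. Each of the 4 groups held libraries high and libraries low in Dbp, with Arntl the other way round. With the phase of each library (log2 Dbp minus log2 Arntl) as a covariate, 3530 genes passed, 2927 of them the same as without it. The kinase Csnk1d was the single clock gene of 25 past the threshold, at 0.56 ± 0.11 (0.50, adjusted p = 0.081 with depth).

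Substrain genes checked the vendor labels. Nnt, the mitochondrial transhydrogenase that carries a deletion in mice from the Jackson colony, read 17, 19.8 and 19.4 RPKM in JAX, 25.5, 33.9 and 28.8 RPKM in CoJAX, 45.1, 57.6 and 61.4 RPKM in TAC and 59.6, 67.3 and 55.4 RPKM in CoTAC. All Jackson libraries lay below all Taconic ones, as the vendor labels imply. Within Jackson mice Nnt was higher after cohousing (log2 0.63 ± 0.14, adjusted p = 0.011; 0.47, adjusted p = 0.14 with depth). Wdfy1, an endosomal adaptor whose level also differed by vendor here, gave 7.22, 6.78 and 9.89 RPKM in JAX and 4.82, 3.6 and 4.28 RPKM in CoJAX (log2 -0.83 ± 0.18, adjusted p = 0.0099; -0.92, adjusted p = 0.073 with depth), farther below the Taconic range of 13.5 to 22.5 RPKM.

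**Figure D5:**
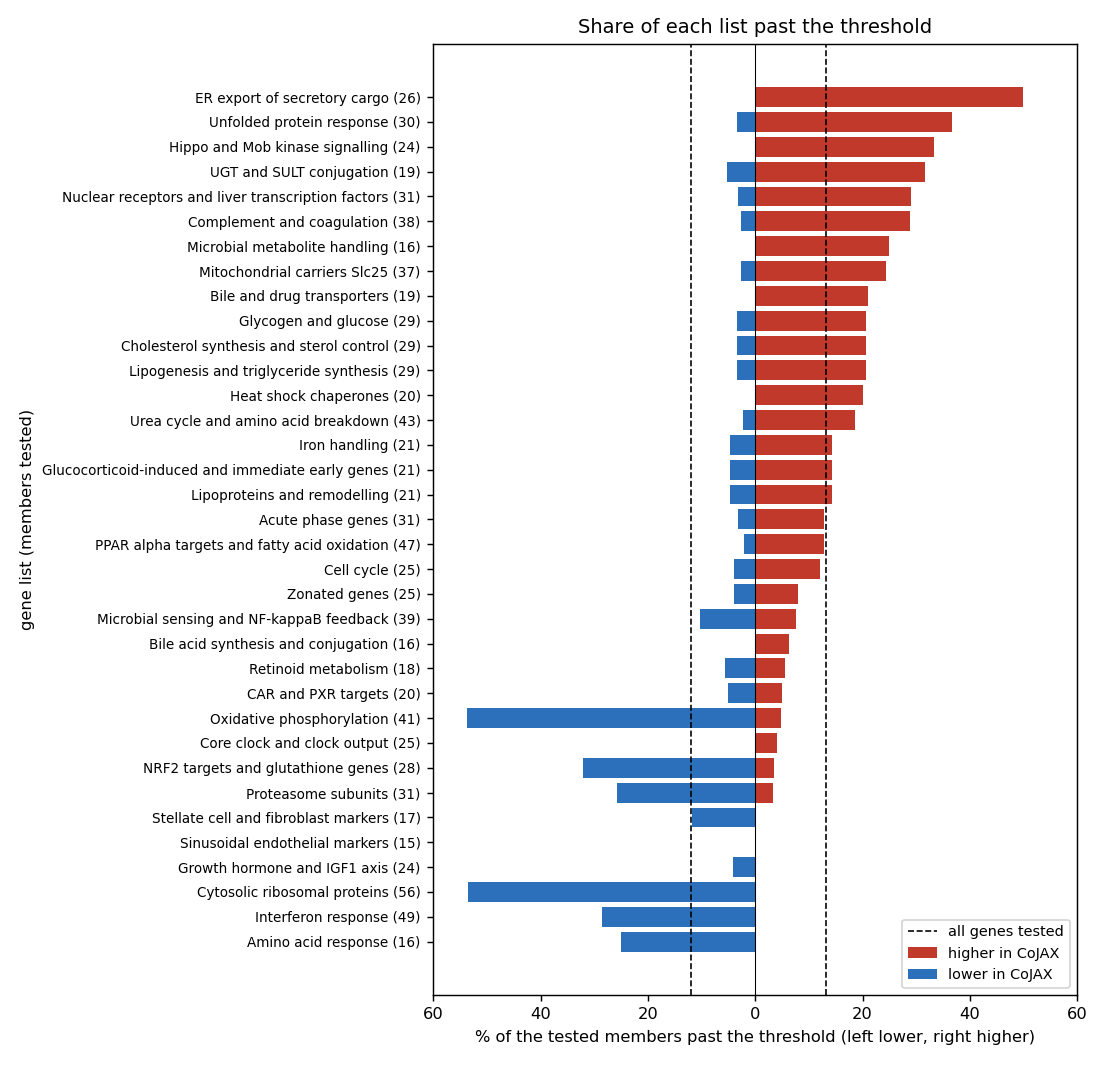
Share of the tested members of each list with at least 15 tested members that passed the threshold (x axis, percent), lower in CoJAX to the left and higher to the right, with dashed lines at the shares over all genes (12% and 13.2%). ER export stands at 13 of 26 higher, while ribosomal proteins (30 of 56) and oxidative phosphorylation (22 of 41) have the largest lower shares.

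The cage mates from Taconic gave a second pair of groups, CoTAC against TAC. The test of the difference between the cohousing effects of the vendors passed for 0 of 11594 genes in limma, with a smallest adjusted p of 0.157, while 1336 genes (11.5%) had an unadjusted p under 0.05. Without TAC 1, the shallow library, 51 genes passed, and under 6 other settings 1 to 7 did. Slc25a30 stood at 3.49, 5.55 and 10.5 RPKM in TAC and 49.5, 92 and 47.6 RPKM in CoTAC, so that both vendors had all cohoused libraries above those kept apart, and the effects differed by -0.22 ± 0.48, adjusted p = 0.90. Arl4d read 186, 154 and 144 RPKM in TAC and 80.6, 56.4 and 57.6 RPKM in CoTAC, lower in all cohoused libraries as in Jackson mice, with a difference of effects of -0.03 ± 0.27, adjusted p = 0.97. Scara5 gave 9.88, 17.3 and 14.3 RPKM and 66.9, 40.8 and 66 RPKM (0.45 ± 0.47, adjusted p = 0.74). For other genes the values diverged by vendor without passing the test. Cyp26a1 stood at 47.6, 52.6 and 32.1 RPKM in TAC and 11.4, 13.2 and 7.74 RPKM in CoTAC (3.51 ± 0.67, adjusted p = 0.20), and Cyp2b10 was listed at 0.695, 3.41 and 1.89 RPKM in TAC and 1.16, 0.60 and 0.347 RPKM in CoTAC (2.44 ± 0.56, adjusted p = 0.25). Since TAC 1 is shallow and TAC 2 and TAC 3 are not, the Taconic pair carries a smaller and uneven depth gap.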

How the data were processed

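The authors deposited a single table of RPKM per gene for 12 liver libraries, and its values were used as deposited. Per the submitters' processing notes, Bowtie 1.0.0, Cuffdiff 2.1.1 and the mouse build mm9 were used, and the labels' protocols name poly(A) selected RNA. Read counts are not in the table. Of 23936 lines, 27 whose names had turned into dates (0.163 to 0.204% of the summed RPKM of a library) were left out, leaving 23909 genes, 7236 of them at 0 in all libraries. Columns of values without a sample numbered 0. No pair of libraries was identical (Spearman 0.951 to 0.968).

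Values were taken to log2(RPKM + 0.5) and fitted with limma 3.58.1 (R 4.3.3, trend) as 4 group means over the 12 libraries, with the contrast CoJAX minus JAX and its difference from CoTAC minus TAC, adjusted by Benjamini-Hochberg over 11594 genes at a threshold of 0.05. Such p-values come from a model fitted across all genes, since an exact permutation test of 3 against 3 cannot go below 0.1. On simulated data with 200 changed genes among 11594 for this contrast, the fit recovered 63% of the genes changed by 1 and 92% of those changed by 2 on the log2 scale. Of 162 calls there, 7 were false. The simulated noise was independent between genes and held no depth gap, so it cannot show how many of the real calls reflect depth. Relative depth came from genes with values under 0.6 RPKM in both JAX 1 and the other library. Their ratios between the 2 libraries were matched to ratios of small whole numbers of reads. Lengths are those of the longest GENCODE transcript on GRCm38, matched by symbol for 95.5% of the genes tested, and serve only for grouping and the correction for length. Fits with depth, other scalings, other pseudocounts and filters, a replicate block and each library left out were alternatives, and the correction for length and level (lowess) and the clock covariate were added after seeing the data. Python 3.11.15 with pandas 2.3.3, numpy 2.4.6 and matplotlib 3.10.9 made the summaries and figures.

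Genes named are the 10 largest differences in each direction among called genes whose groups do not overlap, the same among those that also pass with depth and after quantile normalization, up to 4 per list and direction by smallest p, and 14 single genes chosen for liver function, not all of which are described. Genes named only as holders of a promoter element or as members of a list, Irf7 included, fall outside this rule and were chosen after their values were seen. The members and the gene lists were chosen with earlier results of these data known. Promoter sequences are from RefSeq (GRCm38.p6), matched by symbol, and no coordinates of mm9 were used with them.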

Additional observations from a re-analysis of the deposited data

How the results depend on the processing

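The count of 2930 genes stayed within 1.5 times under every alternative to the 12-library fit except depth and 4 left-out libraries. It was 2890 and 2959 with pseudocounts of 0.1 and 1, 2568 without a filter, 2823 with a filter of 5 RPKM, 2961 and 2963 with median-ratio and trimmed mean scaling, and 3075 after quantile normalization, 2576 of them shared. Depth as a covariate gave 105 (74 higher, 31 lower). With 1 library left out the count ran from 1357 to 3458, higher calls from 735 to 1745 and lower calls from 592 to 1713. The 6 Jackson libraries alone gave 3012 calls, 48.2% of them higher against 52.4%, and leaving out genes above 25% of Alb gave 2619, 57.4% higher. The share of higher calls was 70.5% with depth. The difference between vendors passed for 3 genes without a filter, for 4 with depth and for 0 to 51 with 1 library left out. Same-numbered JAX and CoJAX libraries did not deviate together (correlations -0.101, -0.0918 and 0.00938). With 3 libraries per group, these values cannot settle whether the numbers pair the samples. The replicate block gave 2359 calls, 2318 of them shared. Of 118 genes named here that passed (Hist1h2ae not counted), 107 passed with the block and 116 after quantile normalization. After the correction for length and level 96 passed, and with depth 29. These genes were chosen partly by small p or for passing with depth and after quantile normalization, and their shares exceed those over all calls. Of all 2930 calls, 2576 passed after quantile normalization, 1688 after the correction and 86 with depth. Signs turned under some settings. After quantile normalization the log2 differences were 0.165 for Cyp8b1, 0.113 for Cyp3a11, 0.141 for Cyp2e1 and 0.0446 for Alb. With depth they were 0.284, 0.0620, 0.0850 and 0.0842. After the correction for length and level Cyp8b1 gave 0.0851, Bst2 0.0625 and Mir703 0.329. Dbp gave -3.18 with depth and -1.84 to 1.32 with 1 library left out. The causes of these changes were not tested. Depth limits genes of few reads, and for abundant genes the level near Alb, which moves with depth, limits what RPKM can show.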
